A study of Caenorhabditis elegans with 6 samples.

Results

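Genes that mark the intestine of Caenorhabditis elegans and build its brush border were followed in adult worms with and without linc-4, a long intergenic non-coding RNA. The set was given by name and holds 10 symbols: elt-2, elt-7, ges-1, ifb-2, act-5, erm-1, pho-1, pept-1, opt-2 and spl-1. Of these, 9 matched a row of the deposited table among 22389 genes with read counts, and all 9 were among the 13778 genes tested. No row is named opt-2; as background, opt-2 is an older name of pept-1, so the set names 9 genes.

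The libraries hold polyadenylated RNA of whole adult worms grown on solid medium. Wild type was the laboratory strain N2 (3 libraries), and the mutant carried a deletion of linc-4 made by CRISPR in that same strain (3 libraries). The sources used here state neither the extent of the deletion, nor the exact age of the adults, nor the number of worms behind a library. Total counts ran from 3736372 to 12790323 per library, and linc-4 itself had 193, 345 and 234 reads in wild type 1 to 3 and 5, 1 and 1 reads in linc-4 1 to 3.

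The worm intestine is a tube of epithelial cells whose apical face carries microvilli, the brush border through which nutrients are taken up. GATA transcription factors switch on and then maintain intestinal gene expression throughout life. Below the microvilli an actin-based terminal web and a dense sheet of intermediate filaments support the lumen, and linker proteins hold the apical membrane to actin.

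Most of the set did not pass the test between the groups. The exceptions were erm-1, which encodes the ezrin, radixin and moesin type linker between membrane and actin and was 1.47-fold lower in the mutant, and ges-1, which encodes a gut esterase and was 1.56-fold higher. The regulators elt-2 and elt-7, the filament gene ifb-2, the microvillar actin gene act-5, the acid phosphatase gene pho-1, the peptide transporter gene pept-1 and the lyase gene spl-1 did not pass. By limma-voom fitted over all genes, with Benjamini-Hochberg adjustment and a threshold of 0.05, 1 of 9 genes was higher and 1 of 9 lower. Of all tested genes 11.5% were higher and 7.18% lower, 18.7% in either direction, so the count in the set is close to the background. The median log2 fold change of the 9 genes was -0.07, beside -0.01 over all tested genes. These are whole worms, so fewer cells of a type and less RNA per cell cannot be told apart.

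elt-2 encodes the main GATA factor of the intestine, and elt-7 encodes a GATA factor that acts alongside it. elt-2 lies on chromosome X from 10481240 to 10483446 (+ strand, WBcel235) and elt-7 on chromosome V from 4770670 to 4773091 (+ strand). In reads of the gene per 1e6 reads of the scaled library (CPM), elt-2 stood at 10.5, 8.68 and 11.9 in wild type 1 to 3 and at 10.8, 11.6 and 7.92 in linc-4 1 to 3. The groups overlapped: the highest value was in wild type 3 and the lowest in linc-4 3. Its log2 fold change was -0.07 (SE 0.22), and the 95% interval of the fold ran from 0.686 to 1.32. elt-7 stood at 11.6, 9.74 and 7.40 CPM in wild type and at 10.4, 10.5 and 10.1 CPM in linc-4. The 3 mutant values lay inside the wild type range, and the 95% interval of the fold ran from 0.813 to 1.49. These are the genes of the set with the fewest reads, from 41 to 132 per library, and the intervals are the widest beside that of ges-1.

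Of the 3 tested endodermal GATA genes, elt-2 and elt-7 among them, none was called. elt-4, a small intestinal GATA gene, was at 2.75 ± 0.20 CPM in wild type and 3.66 ± 1.18 CPM in linc-4 (SD, n = 3 each), with overlapping groups. med-1, med-2, end-1 and end-3, which specify the endoderm in the embryo, had 5, 18, 32 and 11 reads over all libraries and were too low to be tested. The list of other GATA genes also holds the chromatin protein genes egl-27 and lin-40. Of its 6 tested genes 1 fell and none rose, beside 7.18% and 11.5% of all tested genes. The lower gene was elt-1, an epidermal regulator, which fell from 15.1 ± 1.48 to 10.2 ± 1.74 CPM (SD, n = 3 each, limma-voom adjusted p = 0.045). Only the fit without linc-4 1 kept that call; without linc-4 3 the adjusted p was 0.15.

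ges-1 lies on chromosome V from 1427653 to 1432137 on the - strand (WBcel235) and has 8 exon blocks. Its level was 14.7, 16.7 and 9.92 CPM in wild type 1 to 3 and 19.7, 20.6 and 22.8 CPM in linc-4 1 to 3. All 3 mutant values were above all wild type values, and wild type 3 was the lowest of the 6. The mean rose from 13.8 ± 3.50 to 21.1 ± 1.6 CPM (SD, n = 3 each). The log2 fold change was 0.64 (SE 0.20, 95% interval 0.21 to 1.08, limma-voom adjusted p = 0.043). In the authors' deposited table the log2 fold change of ges-1 was 0.60 with adjusted p = 0.088, which misses the threshold. The limma-voom call was kept only when wild type 2 was left out, and without wild type 3 the log2 fold change was 0.41 with adjusted p = 0.18.

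Other esterase genes were mostly not called. Of 29 tested genes of the carboxylesterase family, ges-1 among them, 2 rose and none fell, beside 11.5% and 7.18% of all tested genes. The list's median was 0.09 on the log2 scale. The further call was cest-1, a carboxylesterase gene, at 6.94 ± 0.98 CPM in wild type and 11.8 ± 0.36 CPM in linc-4 (SD, n = 3 each; limma-voom adjusted p = 0.022). Its call survived only the fits without wild type 2 and without linc-4 1, and the adjusted p reached 0.081.

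**Figure D1:**
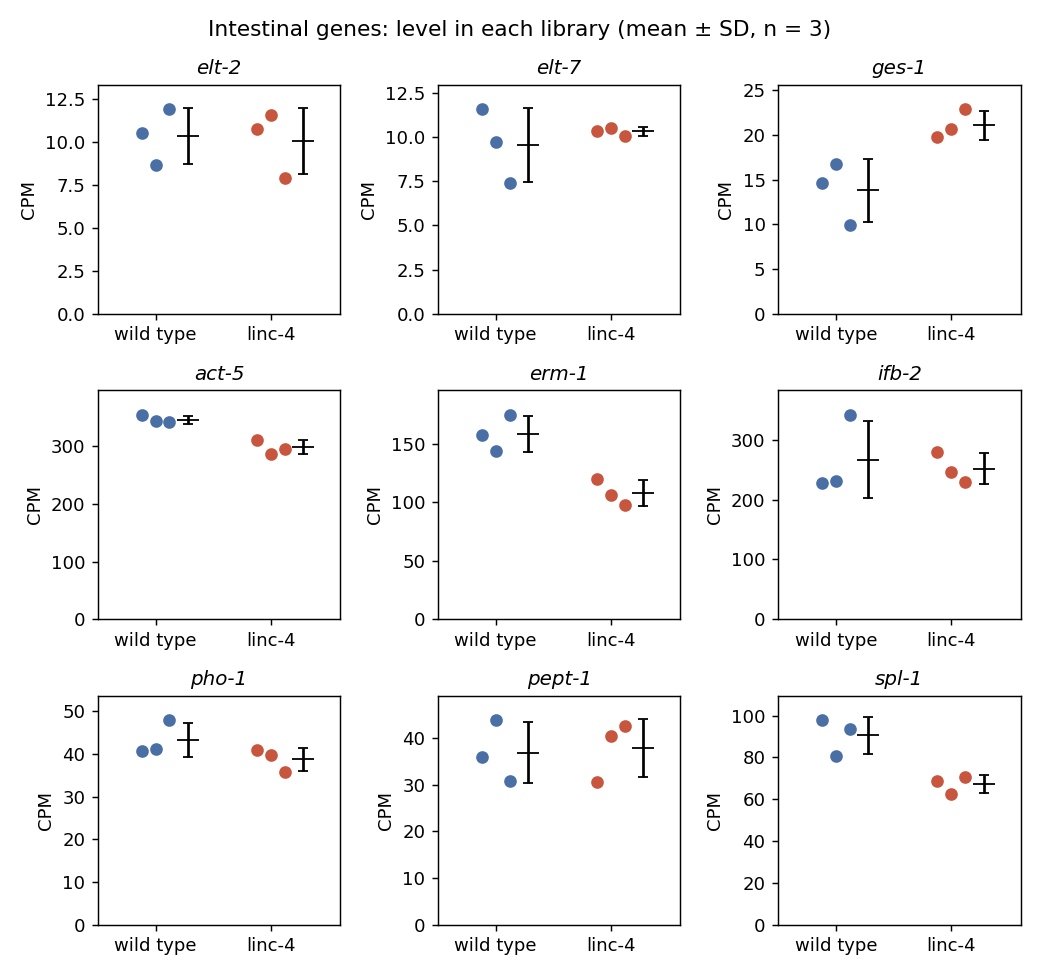
Level of each of the 9 genes in CPM (vertical axis, from 0) in 3 wild type (blue) and 3 linc-4 (red) libraries, replicates 1 to 3 from left to right; black marks are the mean ± SD. The groups do not overlap for ges-1, act-5, erm-1 and spl-1, and overlap for the other 5.

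Of the microvillar genes of the set, erm-1 fell and act-5 did not pass. erm-1 lies on chromosome I from 5284062 to 5291604 on the - strand and has 12 exon blocks. It is known from the apical membrane of tubular epithelia, the intestine and the excretory canal among them. Its level was 157, 144 and 175 CPM in wild type 1 to 3 and 120, 107 and 97.7 CPM in linc-4 1 to 3. Every mutant library was below every wild type library. The mean fell from 159 ± 15.4 to 108 ± 11.2 CPM (SD, n = 3 each), with a log2 fold change of -0.56 (SE 0.14, 95% interval -0.86 to -0.25, limma-voom adjusted p = 0.019). In the authors' deposited table the log2 fold change of erm-1 was -0.57 with adjusted p = 0.0080; of the 9 genes it was the only one called there, 1 lower and 0 higher, beside 4.91% lower and 6.59% higher of all genes with an adjusted p in that table. The limma-voom call survived only the fits without wild type 2 and without linc-4 1. In the other 4 its adjusted p was 0.058 to 0.083, and the log2 fold change stayed between -0.64 and -0.48 in all 6 fits with 1 library left out.

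act-5, on chromosome III from 13604339 to 13606067 (- strand), encodes the actin of the microvilli and stood at 354, 343 and 342 CPM in wild type and 311, 287 and 295 CPM in linc-4. The groups did not overlap and the wild type spread was small, a coefficient of variation of 2.03%, yet act-5 did not pass: its log2 fold change was -0.22 (SE 0.13, 95% interval -0.49 to 0.06, limma-voom adjusted p = 0.25). It belongs to a family of closely related actin genes, so reads could be split between copies; the authors' handling of shared reads is not stated in those sources. Of the 5 actin genes, act-5 among them, 1 fell and none rose, beside 7.18% and 11.5% of all tested genes. act-2 was at 813 ± 150 CPM in wild type and 419 ± 12.4 CPM in linc-4 (SD, n = 3 each, log2 difference -0.94, limma-voom adjusted p = 0.0017), a call kept whichever library was left out. act-1, act-3 and act-4 had log2 fold changes of -0.18, -0.23 and 0.06 and did not pass.

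Among 13 tested genes of the microvillus core, its membrane linkers and the wider cytoskeleton, erm-1 and act-5 included, 2 fell and none rose. Of all tested genes 7.18% were lower and 11.5% higher. The median log2 fold change of the list was -0.22. The call besides erm-1 was plst-1, which encodes plastin, a protein that bundles actin filaments. plst-1 was at 69.8 ± 1.58 CPM in wild type and 40.1 ± 3.39 CPM in linc-4 (SD, n = 3 each, log2 difference -0.80, limma-voom adjusted p = 0.0027) and passed whichever library was left out. eps-8, an actin capping and bundling gene of microvilli, had a log2 fold change of -0.22 and overlapping groups; it was named after its values were seen.

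The intermediate filament layer gave no call. ifb-2, on chromosome II from 5750190 to 5754140 (+ strand), encodes an intestinal intermediate filament protein and stood at 229, 231 and 342 CPM in wild type 1 to 3 and 280, 247 and 230 CPM in linc-4 1 to 3. Wild type 3 stood apart from the other libraries of its group, and the mutant values fell within the wild type range. The log2 fold change was -0.06 (SE 0.17), and the 95% interval of the fold ran from 0.744 to 1.24. Of 12 tested genes of a filament list none passed, beside 18.7% of all tested genes, and 9 of the 12 estimates were positive. Besides this layer and its organisers, the list holds ifa-1 (0.09), ifa-4 (-0.08) and ifb-1 (-0.16), filament genes outside the intestinal layer. The 3 largest estimates, named after their values were seen, were those of ifd-2 (0.56), ifc-1 (0.49) and ifd-1 (0.39), all intestinal filament genes. Their limma-voom adjusted p = 0.11, 0.055 and 0.078. The groups did not overlap for ifc-1 and ifd-1, as for 38.9% of all tested genes.

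**Figure D2:**
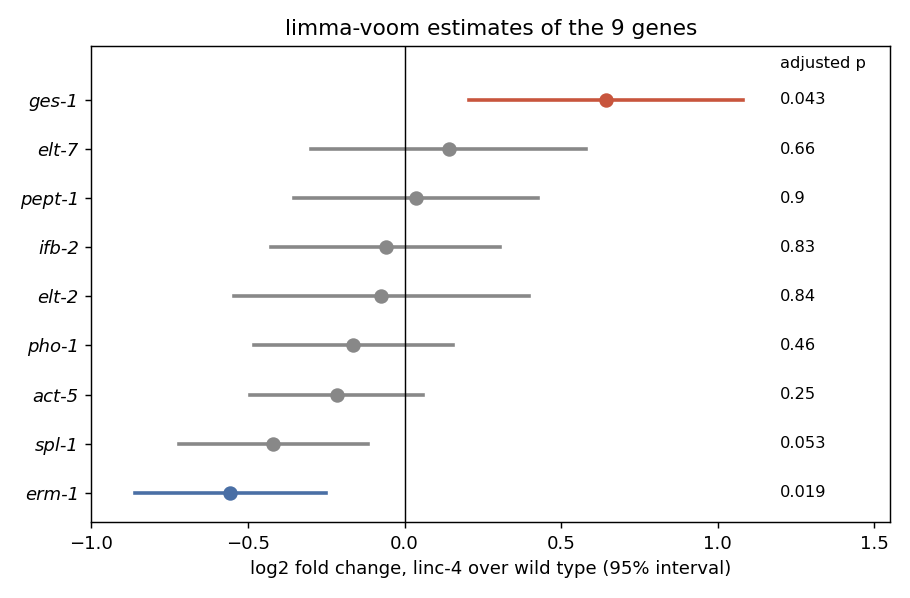
Log2 fold change of linc-4 over wild type with its 95% interval for each gene (limma-voom, 3 libraries per group), with the adjusted p on the right; red is higher, blue is lower and grey did not pass. The interval of spl-1 excludes 0 although its adjusted p of 0.053 misses the threshold, and 6 of the 9 intervals include 0.

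The phosphatase and the transporter of the set did not pass. pho-1, on chromosome II from 5233154 to 5235926 (- strand), encodes an intestinal acid phosphatase and stood at 40.6, 41.1 and 47.8 CPM in wild type and at 40.8, 39.7 and 35.6 CPM in linc-4. The groups overlapped, and the 95% interval of the fold ran from 0.716 to 1.11. Its exons share 120 bp with those of EGAP2.1 on the opposite strand, which had 441 reads over all libraries against 1747 for pho-1; the strandedness of the counting is not stated, so reads from the shared stretch cannot be told apart. For no other gene of the set was a shared exonic stretch found in the annotation. Of 11 tested acid phosphatase genes 1 rose and none fell, beside 11.5% and 7.18% of all tested genes. pho-9 was at 8.37 ± 1.89 CPM in wild type and 20.5 ± 0.71 CPM in linc-4 (SD, n = 3 each, log2 difference 1.27, limma-voom adjusted p = 0.0012) and passed whichever library was left out.

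pept-1, on chromosome X from 6456687 to 6461767 (+ strand), encodes the proton-coupled carrier that takes up dipeptides and tripeptides from the lumen. Its level was 36, 43.8 and 30.8 CPM in wild type 1 to 3 and 30.7, 40.4 and 42.6 CPM in linc-4 1 to 3. The ranges of the groups nearly coincide, and the 95% interval of the fold ran from 0.783 to 1.34. Its paralogs pept-2 and pept-3 had log2 fold changes of -0.47 and -0.09 and overlapping groups. Beside 18.7% of all tested genes, none of 15 tested genes of peptide and proton transport passed. Among them, and named after their values were seen, nhx-2, a sodium and proton exchanger of the intestinal apical membrane, was at 41.2 ± 3.36 CPM in wild type and 49.1 ± 4.39 CPM in linc-4, and vha-6, a proton pump subunit of the same membrane, was at 45.7 ± 7.54 and 51.7 ± 6.95 CPM (SD, n = 3 each).

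spl-1, on chromosome IV from 379898 to 383185 (- strand), encodes sphingosine-1-phosphate lyase, the enzyme that ends sphingolipid breakdown. Its level was 97.7, 80.8 and 93.5 CPM in wild type 1 to 3 and 68.8, 62.7 and 70.8 CPM in linc-4 1 to 3. All 3 mutant values were below all wild type values. The log2 fold change was -0.42 (SE 0.14, 95% interval -0.72 to -0.12), and limma-voom gave adjusted p = 0.053. It gave 0.046 with median-of-ratios scaling and 0.027 without wild type 2. It gave 0.15 with upper-quartile scaling, 0.12 with a replicate block and 0.2 without linc-4 2. Of the 6 fits with a library left out, 1 called spl-1. In the authors' deposited table spl-1 had a log2 fold change of -0.44 with adjusted p = 0.064.

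Genes of sphingolipid metabolism were called in both directions. Of 28 tested, 4 rose and 4 fell, beside 11.5% and 7.18% of all tested genes. The list's median log2 fold change was -0.01. Without linc-4 2 only 1 of the 4 higher calls and 1 of the 4 lower calls, asm-3 and sptl-3, were kept. asm-3, an acid sphingomyelinase gene, was at 11.2 ± 0.70 CPM in wild type and 24.2 ± 0.69 CPM in linc-4 (SD, n = 3 each; limma-voom adjusted p = 0.00099), and asah-1, an acid ceramidase gene, rose from 47.1 ± 10.9 to 71.3 ± 1.72 CPM. sptl-3, which encodes a subunit of the first enzyme of sphingolipid synthesis, fell from 67.7 ± 9.37 to 38.4 ± 5.38 CPM, and cgt-3, a ceramide glucosyltransferase gene, fell by 0.48 on the log2 scale. The calls of asm-3 and sptl-3 were kept whichever library was left out. That of asah-1 failed in 3 of 6 such fits (those leaving out linc-4 2, wild type 1 or wild type 3, adjusted p up to 0.11), and that of cgt-3 was kept only without wild type 2, with an adjusted p up to 0.11.

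Scaled to annotated exon length, the wild type levels of the set spanned 40.9-fold. The order was act-5 at 273 ± 5.54 CPM per kilobase, ifb-2 at 140 ± 34.0, erm-1 at 65.2 ± 6.31, spl-1 at 50.4 ± 4.88, pho-1 at 28.6 ± 2.66, pept-1 at 13.2 ± 2.34, elt-7 at 11.4 ± 2.49, ges-1 at 7.90 ± 2.01 and elt-2 at 6.66 ± 1.04 (mean ± SD, n = 3). From act-5 down to pept-1 each gene lay above the next in every wild type library pair. The last 4, pept-1, elt-7, ges-1 and elt-2, overlapped their neighbours. The median of all tested genes was 9.06 CPM per kilobase; act-5 stood above 95.6% of them in wild type and elt-2 above 43.6%. The mean order was the same in linc-4, though there ges-1, at 12.1 ± 0.92 CPM per kilobase, stood close to elt-7, at 12.3 ± 0.30.

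**Figure D3:**
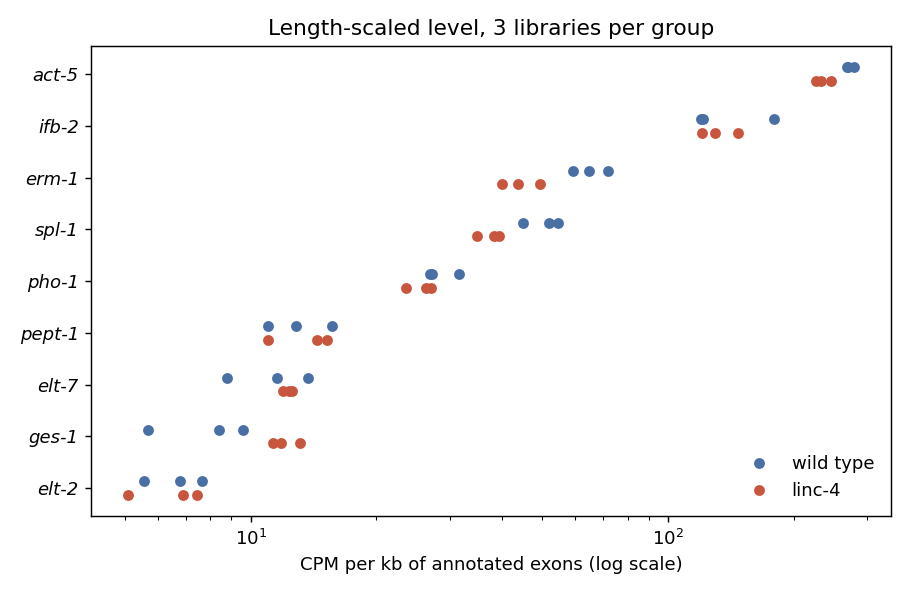
Level per kilobase of annotated exons (log axis, CPM per kb) in the 3 wild type (blue) and 3 linc-4 (red) libraries, genes ordered by wild type mean. Structural genes lie at the top, act-5 at 273 in wild type, and the GATA factor elt-2 at the bottom at 6.66.

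The sum of the 9 genes was 951, 919 and 1060 CPM in wild type 1 to 3 and 893, 827 and 813 CPM in linc-4 1 to 3. The groups did not overlap, and the difference of the mean sums, linc-4 less wild type, was -133 CPM. The part of erm-1 in it was -50.7 CPM, and the means of act-5, spl-1 and ifb-2, which did not pass, differed by -48.2, -23.2 and -14.9 CPM. act-5 and ifb-2 made up 62.7% of the sum in wild type. Of the 9 genes, 4 had groups without overlap, 3 of them lower and 1 higher, beside 38.9% of all tested genes in either direction, 17.7% lower and 21.2% higher.

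Setting each gene against the mean log2 CPM of the other 8 genes in its library removes any difference that the whole set shares. On this scale the difference was -0.54 for erm-1, -0.40 for spl-1, -0.16 for act-5 and 0.81 for ges-1, and these 4 had groups without overlap. The other differences lay between -0.09, for pho-1, and 0.23, for elt-7, with overlapping groups. The same 4 genes were without overlap in CPM, as were 38.9% of all tested genes. Both scales rest on the same values, so the match is not separate support. This comparison was chosen after the values were seen and carries no test.

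**Figure D4:**
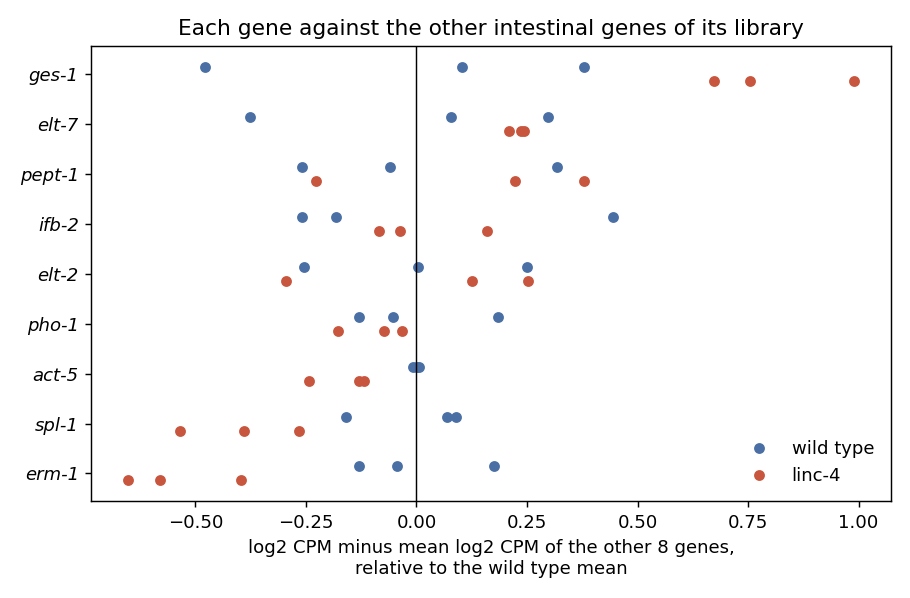
Each gene's log2 CPM less the mean log2 CPM of the other 8 genes in the same library (horizontal axis, shifted so that the wild type mean is 0), 3 wild type (blue) and 3 linc-4 (red) libraries. The linc-4 points of erm-1, spl-1 and act-5 lie to the left of the wild type points and those of ges-1 to the right.

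Apical junction, trafficking and gut granule genes complete the surroundings of the brush border. Their counts stand beside 11.5% higher and 7.18% lower of all tested genes, 18.7% in either direction. Of 17 tested genes of apical junctions and apical polarity 2 fell and none rose: hmp-2, the beta-catenin of adherens junctions, by 0.57 on the log2 scale, and par-6, a polarity gene, from 34.6 ± 7.71 to 20.3 ± 4.49 CPM (SD, n = 3 each). Of 23 genes of lumen membrane biogenesis 3 fell and 1 rose, with a median of -0.25. rab-5, of early endosomes, fell from 198 ± 15.3 to 123 ± 21.0 CPM, chc-1, the clathrin heavy chain gene, from 74.5 ± 7.88 to 51.1 ± 5.48 CPM and rab-11.1, of recycling endosomes, from 294 ± 43.0 to 209 ± 10.2 CPM. hpo-8, of fatty acid elongation, was higher, at 77.1 ± 12.4 CPM in wild type and 114 ± 20.7 CPM in linc-4 (SD, n = 3 each). Of 18 gut granule genes 1 rose, the zinc transporter gene cdf-2, by 0.59 on the log2 scale, and 1 fell, the mucolipin gene cup-5, by 0.74. None of these 8 calls was kept in all 6 fits with a library left out. The call of cdf-2 was kept in 0 of 6, that of rab-11.1 in 1, those of hmp-2, hpo-8 and cup-5 in 2, those of par-6 and chc-1 in 3 and that of rab-5 in 5. Without linc-4 2, limma-voom gave adjusted p = 0.13 for hmp-2, 0.14 for par-6, 0.055 for rab-5, 0.12 for chc-1, 0.13 for rab-11.1 and 0.11 for cdf-2, and without wild type 1 it gave 0.17 for hpo-8 and 0.15 for cup-5.

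**Figure D5:**
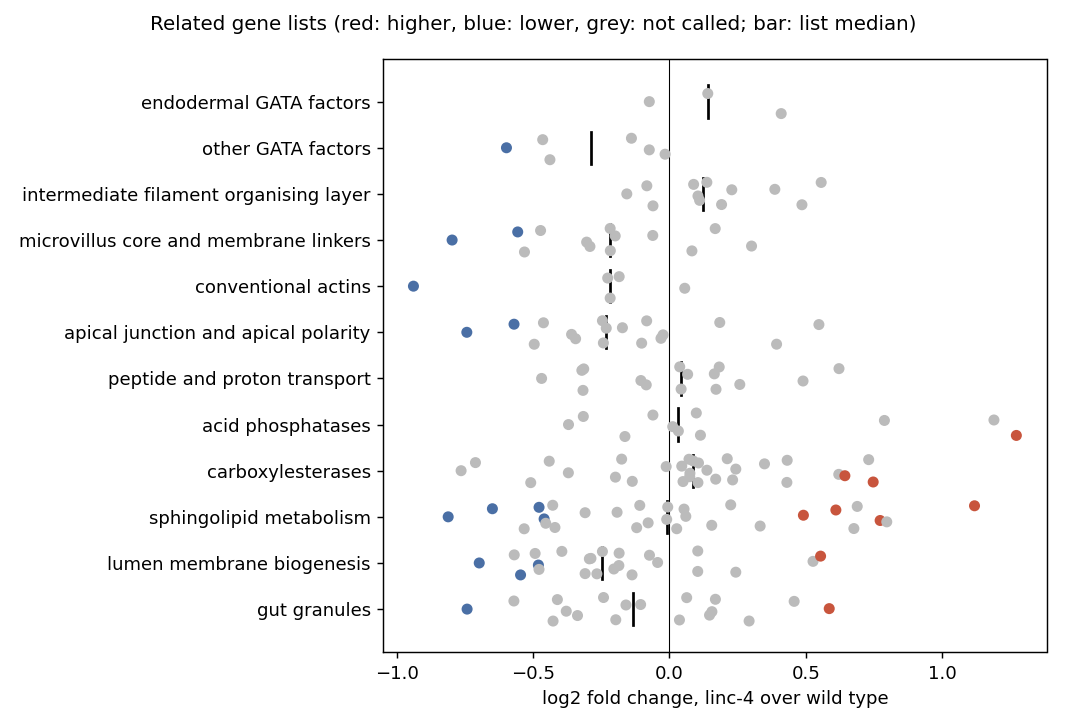
Log2 fold change of linc-4 over wild type for every tested gene of 12 related lists (horizontal axis); red points were called higher, blue lower and grey were not called, and bars are list medians. Calls in the intermediate filament, endodermal GATA and peptide transport lists are absent, and sphingolipid genes hold 4 in each direction.

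Marker genes of some other tissues differed between the groups. Of all tested genes 11.5% were higher and 7.18% lower. Taken singly, 38.9% of them had groups without overlap, and no such share was computed for sums. As background, erm-1, the actin genes other than act-5 and the trafficking genes are also active outside the intestine. Of 8 germline markers 5 fell and none rose, and their summed level was 1260 to 1570 CPM in wild type and 857 to 927 CPM in linc-4. Of 8 oocyte markers 7 fell, from sums of 1568 to 1887 CPM to sums of 1004 to 1089 CPM. Of 7 tested sperm markers 3 rose, and sums were 52.5 to 71.4 and 102 to 112 CPM. Body wall muscle markers (2 of 8 rose), pharyngeal muscle markers (3 of 7 rose) and epidermal markers (1 of 8 fell) had sums that did not overlap between the groups, nor did those of coelomocytes (0 of 3 called). Neuron markers (0 of 8 called) and excretory canal markers (0 of 7 called), with sums of 324 to 401 CPM in wild type and 296 to 334 CPM in linc-4, overlapped. These calls were also unevenly kept when a library was left out. Without linc-4 2, 1 of the 5 germline calls, 4 of the 7 oocyte calls, 2 of the 3 sperm calls and 2 of the 2 body wall muscle calls were kept, and 0 of the 3 pharyngeal calls. The epidermal call, col-140, a cuticle collagen gene, was kept in 1 of 6 fits, as was the sperm call of gsp-3. No marker was at 0 in all libraries. The part of these differences in the values of erm-1, act-5, plst-1, act-2 and the trafficking genes was not tested.

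The genes whose profile over the 6 libraries was nearest to that of elt-2 were madd-4, Y41D4B.11, dnj-17 and rab-7. The root mean square difference in log2 CPM, each gene centred on its mean, was 0.0432 to 0.0525 for these, beside a median of 0.329 over the 9103 candidates, those averaging 50 or more reads. None of them is in the set. The nearest gene of the set was pho-1, at 0.148 and rank 403, and ges-1 was the farthest, at 0.522 and rank 8133. Over 6 libraries and so many candidates this is a description only.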

How the data were processed

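Per the submitters' processing notes, the authors' tools were TopHat2 2.1.1, cutadapt 2.10, DESeq2 1.22.2 and HTSeq 0.12.4, and the build was WBcel235; no settings are stated there. The deposited table holds raw read counts per gene, the same counts divided by 1 size factor per library, and the authors' own comparison. Of 46904 rows 24515 carry a question mark in place of a count and were read as no value; for this reason the columns could not be registered as counts, and limma-voom was used.

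A gene was tested if 3 libraries reached the CPM equal to 10 reads in a library of median size and its reads summed to 15 or more; 13778 genes passed. Counts were scaled by trimmed means of M values (30% of ratios and 5% of abundances trimmed) and tested with limma 3.58.1 in R 4.3.3 over all genes, two-sided, after the fit had been tested on simulated data. Intervals are 95% intervals of that fit. Exon lengths and overlaps are from the Ensembl annotation of the same build; names of the cest family come from it. A floor of 3 reads was 0.228 to 0.771 CPM. Pairs of libraries of a group differed beyond counting noise (chi-square per degree of freedom 5.31 to 21.4). Nothing in the labels states whether the libraries are separate cultures; the p-values reflect the spread among these libraries, which may be technical.

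The genes of the set, the related lists and the tissue markers were chosen with earlier results of these data known. Named are all genes of the set, up to 4 called genes of each list with the smallest p and the 4 genes nearest to elt-2. Paralogs are named only among the actin, peptide transporter and intestinal GATA genes. Alternatives were 2 other scalings, 2 other filters, a replicate block, each library left out, limma-trend, the authors' deposited comparison and a minimum log2 fold change of 1; values relative to the other genes of the set were added after seeing the data.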

Additional observations from a re-analysis of the deposited data

How the results depend on the processing

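The counts in the set rest on few libraries: with 1 library left out, genes of the set called higher ranged from 0 to 1 and lower from 0 to 2, and over all genes from 741 to 1607 higher and from 189 to 1241 lower (741 and 395 without wild type 1, 758 and 189 without linc-4 2). With a replicate block the set had 0 and 0 calls (adjusted p = 0.074 for ges-1 and 0.051 for erm-1) and all genes 1210 and 504. Deviations of same-numbered libraries correlated at 0.0917, -0.102 and -0.38. Only wild type 1 correlated best with the library of its own number. Wild type 2 and linc-4 3 correlated at 0.459, wild type 3 and linc-4 1 at 0.374, and wild type 2 and linc-4 1 at -0.405. Deviations are taken from the group mean, so these values depend on one another and cannot settle whether the libraries are paired. Whether libraries share an unlabelled batch was not tested. The set had 2 lower calls, erm-1 and spl-1, with median-of-ratios scaling and with limma-trend on log2(CPM + 1), and 0 higher calls in the authors' deposited comparison. At a log2 fold change of at least 1 the set had 0 and 0 calls and all genes 805 and 89. Under upper-quartile scaling the median log2 fold change of all genes shifted by 0.11, with 2065 higher and 476 lower calls in place of 1591 and 989. Without a filter on low counts 652 genes were lower. The directions of erm-1, ges-1, spl-1, act-5 and pho-1 were the same under every alternative run. Those of elt-2, elt-7, ifb-2 and pept-1, none of them called, turned under at least 1; with upper-quartile scaling elt-2 was 0.04 and ifb-2 0.05. The cause of these shifts was not tested. Of 23 called genes in the related lists, 5 kept their call whichever library was left out.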

Other observations

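The counts below stand beside 11.5% higher and 7.18% lower of all tested genes, 18.7% in either direction. By the gene ontology terms that the deposited table lists per gene, 5 tested genes carry the term brush border membrane. None of these was called, and none is in the set. Of 3 genes with the term terminal web, 2 of them in the set, 1 was lower, unc-94, and none higher. Of 4 genes with the term microvillus organization, 1 was lower, wsp-1, and none higher. Of 72 genes with the term apical plasma membrane, 2 were higher and 6 lower, erm-1, chc-1, par-6 and rab-11.1 among the lower ones, with a median log2 fold change of -0.04. Of 13 genes with the term endodermal cell fate specification, 10 were lower and none higher, with a median of -0.59, beside 7.18% lower of all tested genes. Oocyte markers (7 of 8 lower, median -0.74) and germline markers (5 of 8 lower, median -0.64) were lower in the same libraries, and their part in this count was not tested. The 10 genes include skn-1, src-1, wrm-1 and mom-2, which act in the early embryo, and none belongs to the intestinal set. The terms were chosen after the data were seen.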
